A study of Homo sapiens with 36 samples.

Results

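The genes of glycolysis and of the cellular response to low oxygen were followed in A549 cells, an established human line of lung adenocarcinoma that retains some traits of alveolar type II cells, kept in cigarette smoke extract (CSE). The set holds 35 genes chosen by name: glucose and lactate carriers, the enzymes from hexokinase to lactate dehydrogenase, regulators of the pathway, the hypoxia-inducible factor subunit HIF1A with 2 of its prolyl hydroxylases, and genes that this factor is known to switch on. Each was read from a transcript cluster (the probes of 1 gene on the array) that carries its symbol alone, and from the brighter cluster by mean over all arrays where there was more than 1, which was the case for TPI1. This gave 32 of the 35 members, out of 18417 genes read in that way. SLC16A3 and CA9 had no such cluster and PGAM1 only clusters shared with PGAM4, so these 3 were not analysed here.

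The study placed cultures in CSE at 1%, 5% or 10% for 1, 3 or 5 weeks, beside control cultures without CSE for each time, and asked how long exposure changes lung epithelial cells. CSE was smoke drawn through serum-free medium, applied fresh and renewed daily, and the cells were subcultured every week. Total RNA of 36 cultures was hybridised to 36 one-colour arrays (Affymetrix Human Gene 1.0 ST), with 3 cultures in each of the 12 combinations of exposure and week. The study describes its repeats as independent experiments, all on this 1 cell line, and a p-value here reflects only how cultures of the same group vary. In the main fit each gene has 1 spread, shared by all 12 groups of 3 cultures, so wider scatter within 1 group is not carried separately.

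Glycolysis splits glucose into pyruvate. Where oxygen is short or growth is fast, lactate dehydrogenase turns much of that pyruvate into lactate, which leaves the cell with protons. HIF-1 is a pair of proteins, HIF-1α and ARNT; in oxygen, prolyl hydroxylases such as EGLN1 and EGLN3 mark HIF-1α for destruction, and in hypoxia it stays, enters the nucleus and switches on glucose carriers, glycolytic enzymes, angiogenic factors and the hydroxylases themselves. Regulation of HIF-1α is therefore mostly at the level of the protein, which an array does not measure.

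HIF-1 binds the letters ACGTG or, in the other form of its element, GCGTG. Both forms were searched on both strands in the RefSeq promoter windows of GRCh38.p14, which span 250 bases before to 50 bases after a start site. Of the 32 members read, 28 had a window and 52 windows were searched; SLC2A3, VEGFA, BNIP3L and NDRG1 were not matched. Either form was found in 36 of the 52 windows (69.2%), against 17012 of all 35116 windows (48.4%), and 27 of the 28 members had it in at least 1 window. The count by member cannot be set against the share of windows, since 11 of the 28 members had several windows. A share by gene was not computed over all genes. ACGTG alone was in 20 member windows (38.5%), against 21.4% of all windows, and GCGTG in 23 (44.2%), against 36.5%. The member windows were also richer in G and C, with a median of 68.8%, against 58.7% over all windows. ACGTG lies within the E-box CACGTG, which was in 7 member windows (13.5%), against 7.26% of all, and GCGTG is also the core of the element bound by the aryl hydrocarbon receptor. A match is a run of letters and not a shown binding site. The windows of 5 members whose transcripts moved in opposite directions under CSE are given below, because these letters stand in both kinds: BNIP3 and CA12 were among the members that rose, and ALDOC, PGK1 and EGLN1 among those that fell. Capitals mark the matched letters (read from the opposite strand a match starts with CACG), and each window reads 5′ to 3′ on the strand of its gene: BNIP3 at chr10:131981874-131982173 (minus strand, 5 matches), CA12 at chr15:63381797-63382096 (minus, 2), ALDOC at chr17:28576846-28577145 (minus, 4), PGK1 at chrX:78103998-78104297 (plus, 4) and EGLN1 at chr1:231422238-231422537 (minus, 1).
BNIP3: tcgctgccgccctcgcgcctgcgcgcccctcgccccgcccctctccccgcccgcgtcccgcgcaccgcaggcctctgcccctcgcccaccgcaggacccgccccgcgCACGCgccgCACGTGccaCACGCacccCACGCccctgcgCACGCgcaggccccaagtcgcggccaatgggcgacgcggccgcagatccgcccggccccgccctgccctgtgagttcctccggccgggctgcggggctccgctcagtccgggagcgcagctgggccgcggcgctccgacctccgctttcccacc
CA12: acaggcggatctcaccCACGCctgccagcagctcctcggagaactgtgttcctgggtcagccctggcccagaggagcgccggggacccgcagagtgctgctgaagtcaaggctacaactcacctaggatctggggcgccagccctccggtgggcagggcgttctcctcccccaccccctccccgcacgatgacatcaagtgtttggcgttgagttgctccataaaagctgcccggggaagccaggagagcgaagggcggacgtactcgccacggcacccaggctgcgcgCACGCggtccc
ALDOC: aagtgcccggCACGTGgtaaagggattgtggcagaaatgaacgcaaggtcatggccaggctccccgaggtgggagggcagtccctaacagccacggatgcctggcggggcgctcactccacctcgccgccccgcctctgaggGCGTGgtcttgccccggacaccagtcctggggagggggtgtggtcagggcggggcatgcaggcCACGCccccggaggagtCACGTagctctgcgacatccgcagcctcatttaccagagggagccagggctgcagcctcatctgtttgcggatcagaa
PGK1: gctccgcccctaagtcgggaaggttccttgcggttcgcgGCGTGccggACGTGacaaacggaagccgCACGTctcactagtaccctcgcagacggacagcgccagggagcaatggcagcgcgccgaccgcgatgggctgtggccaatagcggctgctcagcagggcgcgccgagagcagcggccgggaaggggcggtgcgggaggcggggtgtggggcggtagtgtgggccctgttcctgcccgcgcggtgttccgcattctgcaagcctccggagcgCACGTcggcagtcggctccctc
EGLN1: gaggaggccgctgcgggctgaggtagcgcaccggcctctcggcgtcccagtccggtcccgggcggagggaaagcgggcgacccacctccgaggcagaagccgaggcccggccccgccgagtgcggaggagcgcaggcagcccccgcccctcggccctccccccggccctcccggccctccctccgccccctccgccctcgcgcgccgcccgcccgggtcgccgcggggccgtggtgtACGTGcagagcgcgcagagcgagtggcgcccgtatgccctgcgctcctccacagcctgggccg

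Counted from the start site, the 5 matches of BNIP3 began between positions −143 and −104, and 1 of them is an E-box. The single match of EGLN1 began at position −13. PGK1 and ALDOC, both lower under CSE, held 4 matches each.

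The deposited values are log2 signals after robust multi-array averaging, so a difference of 1 is a doubling, and the levels of a member were compared between cultures and not with those of another member. Over all arrays the signals spanned 2.29 to 14.5, with array medians of 6.72 to 6.91, and all 32 members lay among the 19978 clusters that make up the brightest 60%. As a check of the label, the ranges of marker genes over the 36 arrays are given, without ranking 1 probe against another. The epithelial genes KRT8 (12.99 to 13.6), KRT18 (12.97 to 13.5) and EPCAM (8.28 to 11.0) were measured, as were 5 genes of alveolar type II cells: SFTPC (5.84 to 6.70), SFTPB (5.98 to 6.79), NAPSA (6.06 to 6.69), SFTPD (6.86 to 7.79) and ABCA3 (8.05 to 9.09). Of markers of other cell types, PTPRC ranged from 3.63 to 4.64, PECAM1 from 4.71 to 5.38, PDGFRA from 4.80 to 5.40, CD3E from 5.01 to 5.87, CDH5 from 5.60 to 6.19, COL1A1 from 7.46 to 8.06 and CD68 from 8.89 to 11.2, where the median of all values was 6.79 and their lowest 5% lay under 3.42. Of 7 markers of other cell types, 0 were higher and 1, 1 and 6 were lower at CSE 5% after 1, 3 and 5 weeks, and 2 were lower after 5 weeks against the controls of weeks 1 and 3. Of all clusters, 4.84%, 9.93% and 40.3% were lower, and 13% against those controls. Of 6 markers of the lung epithelial line (KRT8, KRT18, EPCAM, CDH1, AKR1B10 and AKR1C1), 1, 0 and 2 were higher and 0, 2 and 2 lower. Against the controls of weeks 1 and 3, 1 was higher and 4 were lower after 5 weeks. The 3 control arrays of week 5 stood apart from the other 33: their signals had a smaller spread (SD 2.15 to 2.21, against 2.25 to 2.31) and they lay at one end of the first principal component (−111 to −74.6, against −61.2 to 47.1), which held 38.8% of the variance. Their labels also disagree. The titles give week 5, whereas the descriptions of all 3 and the source names of 2 give week 3, and they were used as week 5. The 5-week counts and the main 5-week differences are therefore also given against the 6 control arrays of weeks 1 and 3. Cultures are bulk RNA, in which a change in every cell and a change in the share of cells with a given level cannot be told apart.

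Each CSE group was set against the control of its own week in 1 limma fit over all 36 arrays, and a gene was called where its p, adjusted by Benjamini-Hochberg across the 33297 clusters, was under 0.05. The 3 concentrations of 1 week share their control arrays, so their results are not independent of each other. After 1 week, 6 members were higher and 0 lower at CSE 1%, where 3.41% of all clusters were higher and 1.9% lower (at an unadjusted p under 0.05 the limma fit gave 13 higher and 0 lower). At CSE 5%, 8 were higher and 10 lower, beside 5.99% and 4.84% of all clusters. At CSE 10%, 8 were higher and 12 lower, beside 8.27% and 8.44%. More of the members than of all clusters were therefore called in each direction at CSE 5% and CSE 10%. Their median difference was 0.15, −0.10 and −0.10 at CSE 1%, 5% and 10%, beside −0.03, −0.03 and −0.02 over all clusters. Since bright clusters are called more often, the shares among the brightest 60% serve as a closer measure, and these were 10.9% higher and 8.04% lower at CSE 5%, and 14.4% and 14.2% at CSE 10%, all below the shares of the members (25% higher and 31.2% lower at CSE 5%, 25% and 37.5% at CSE 10%).

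After 3 weeks, 4 members were higher and 4 lower at CSE 1%, beside 5.67% and 5.81% of all clusters. At CSE 5%, 8 were higher and 11 lower (9.7% and 9.93% of all clusters). At CSE 10%, 8 were higher and 12 lower (14% and 12.5% of all clusters, and 20.9% and 21% of the brightest 60%). After 5 weeks, 7 were higher and 15 lower at CSE 1% (20.3% and 33.5% of all clusters), 7 and 16 at CSE 5% (23% and 40.3%), and 8 and 19 at CSE 10% (21.9% and 39.6%). At that time most clusters passed the test in 1 direction or the other. The median difference of the members was −0.18, −0.19 and −0.34 at CSE 1%, 5% and 10%, beside −0.14, −0.17 and −0.17 over all clusters. The members called higher were 21.9%, 21.9% and 25% of the set at CSE 1%, 5% and 10%, below the 32.1%, 34.7% and 33.1% among the brightest 60% of clusters. Those called lower were 46.9%, 50% and 59.4% of the set, above the 30%, 37.6% and 38.7% among bright clusters.

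Against the controls of weeks 1 and 3, the 5-week counts were 1 higher and 12 lower at CSE 1% (7.86% and 7.43% of all clusters), 7 and 12 at CSE 5% (13.1% and 13%), and 6 and 14 at CSE 10% (15% and 16%). In this comparison too, the members called lower exceeded the background share at every concentration. By the rule that the study used, a log2 fold change beyond 1 with a B statistic (log odds of a change) above 0, the members passing in either direction at CSE 1%, 5% and 10% were 0, 3 and 5 after 1 week (0.324%, 0.895% and 1.52% of all clusters), 0, 1 and 2 after 3 weeks (0.748%, 1.74% and 2.5%), and 2, 4 and 5 after 5 weeks (4.02%, 9.15% and 9.08%). These were PFKFB3, HIF1A and BNIP3, which were higher, and SLC2A3, ALDOC, EGLN1 and EGLN3, which were lower.

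**Figure D1:**
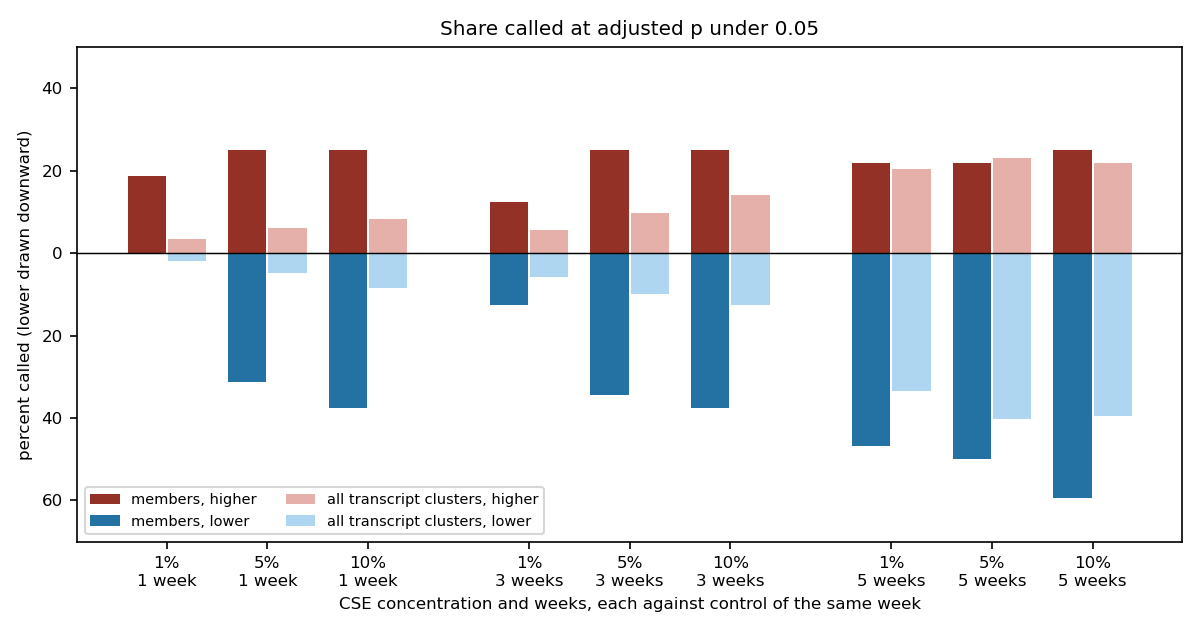
Percent of the 32 members and percent of all 33297 transcript clusters called higher or lower (adjusted p under 0.05, limma) in each of the 9 comparisons of CSE with the control of the same week. The members are above the background in both directions at CSE 5% and CSE 10% after 1 week, whereas after 5 weeks the share of members called higher lies near that of all clusters and the share called lower is above it (59.4% at CSE 10%, against 39.6% of all clusters).

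Over the 9 comparisons, 8 members were called higher only, 14 lower only, 8 in different directions in different comparisons, and 2, PFKM and PFKFB4, in none. The same tally was not made over all clusters, so these numbers have no background to be set against. After 5 weeks alone, 20.3% to 23% of all clusters were higher and 33.5% to 40.3% lower. PFKFB3 was the one member called in all 9. The members did not move as 1 block: HIF1A, PFKFB3, CA12 and the mitophagy genes were higher, while most glycolytic enzymes and EGLN1 were lower.

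**Figure D2:**
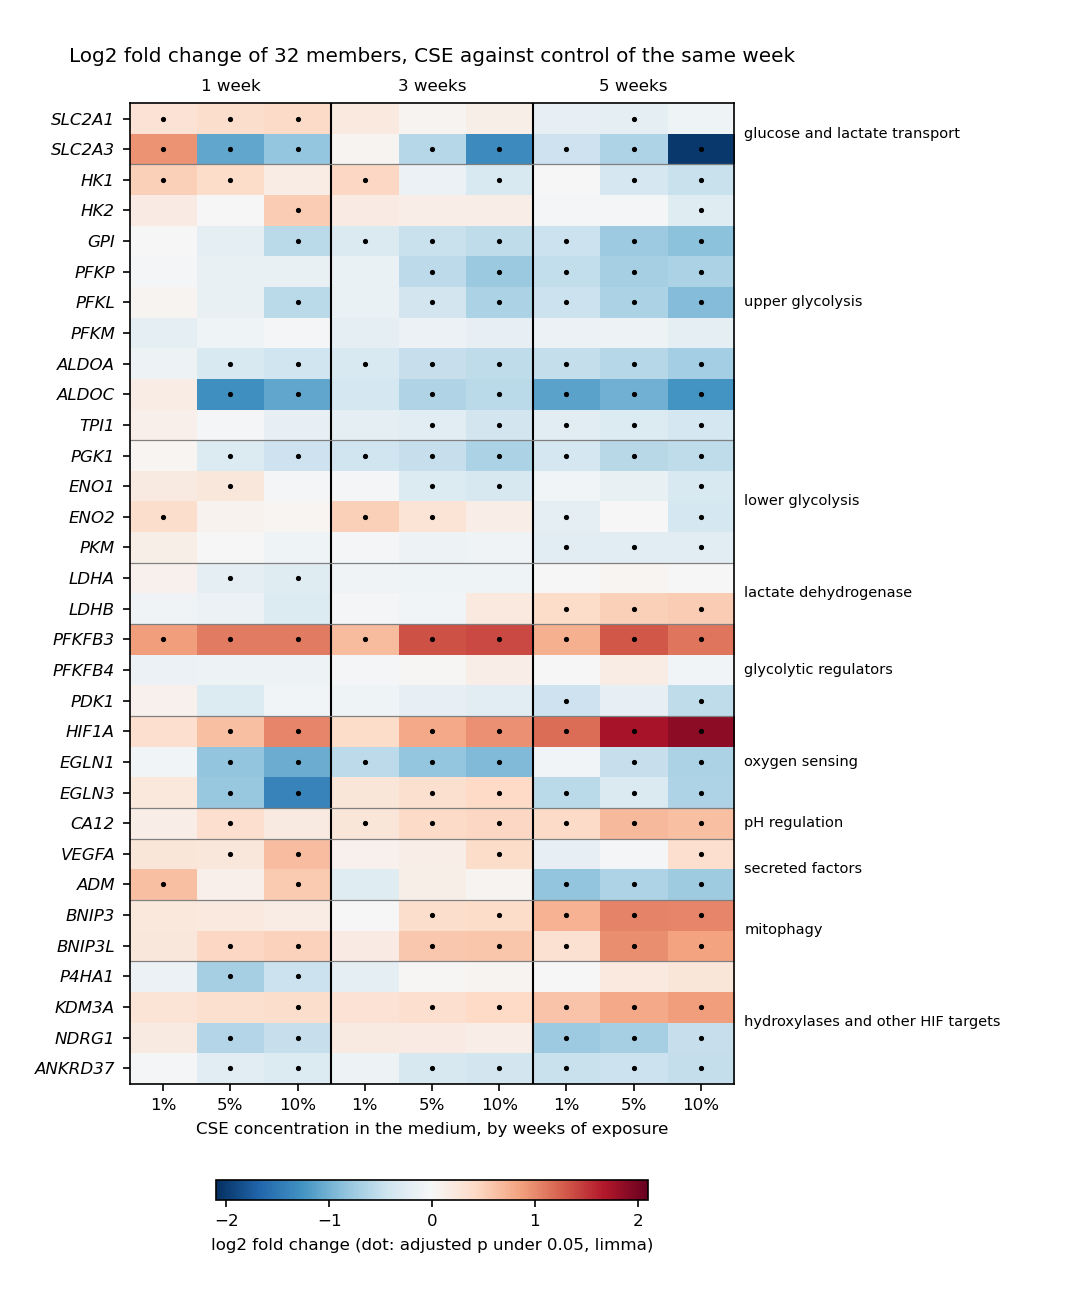
Log2 fold change of the 32 members, ordered by role, in the 9 comparisons of CSE with the control of the same week (dots: adjusted p under 0.05, limma). PFKFB3 is higher across its whole row, HIF1A, CA12, BNIP3L and KDM3A are higher in most columns, and the rows of GPI, PFKL, ALDOA, ALDOC, PGK1 and EGLN1 are lower in most.

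PFKFB3, which makes fructose 2,6-bisphosphate, the strongest activator of the committing step of glycolysis, was higher at every concentration and time. At CSE 5% its signal was 9.17, 9.11 and 9.06 after 1 week, against 7.89, 7.95 and 8.25 in the controls. After 3 weeks it was 9.54, 9.75 and 9.60 at CSE 5%, against 8.26, 8.36 and 8.24 in the controls. After 5 weeks the values at CSE 5% were 9.92, 9.73 and 9.69, against 8.68, 8.42 and 8.32. No exposed culture overlapped with a control of its week at any of the 3 concentrations. The differences at CSE 1% were 0.88, 0.66 and 0.75 after 1, 3 and 5 weeks, and those at CSE 5% were 1.08, 1.34 and 1.31 (2.12-, 2.54- and 2.47-fold, SE 0.109, adjusted p of at most 1.87e-08). At CSE 10% they were 1.09, 1.38 and 1.13, so CSE 10% lay close to CSE 5% in each week. The 5-week differences were larger against the controls of weeks 1 and 3, at 1.07, 1.62 and 1.45. The related PFKFB4 was not called (−0.13 to 0.15).

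HIF1A, the regulated subunit of HIF-1, was higher at CSE 5% and CSE 10% in every week. After 1 week its signal was 11.18, 11.28 and 11.35 at CSE 10%, against 10.52, 10.35 and 9.88 in the controls, a difference of 1.02 (SE 0.163, 2.03-fold, adjusted p = 2.82e-05, limma). In week 3 it was 11.24, 11.31 and 11.29 at CSE 10%, against 10.44, 10.12 and 10.39, a difference of 0.96 (adjusted p = 4.72e-05). The exposed cultures of both weeks lay close together and above all controls. At CSE 5% the differences were 0.62 after 1 week and 0.80 after 3 weeks (adjusted p = 0.0104 and 0.000547), and at CSE 1% they were 0.35 and 0.39 and did not pass. The 3-week difference at CSE 1% did pass in a fit of week 3 alone (0.39, adjusted p = 0.0354) and against all 9 control arrays (0.74, adjusted p = 0.0110). Those 9 arrays include the week-5 controls with conflicting labels, whose mean for HIF1A was 9.33, beside 10.25 and 10.32 in the controls of weeks 1 and 3. The 1-week call at CSE 5% rested on single cultures: it was 0.44 without control replicate 3 (adjusted p = 0.130) and 0.55 without CSE 5% replicate 3 (adjusted p = 0.0604).

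After 5 weeks HIF1A reached 11.15, 11.21 and 11.27 at CSE 10%, against 8.87, 9.54 and 9.57 in the controls, a difference of 1.88 (adjusted p = 3.11e-10, 3.69-fold). The level under CSE 10% was thus about the same as in the earlier weeks, and the control level was lower: control cultures of week 5 differed from those of week 3 by −0.99. Set against the controls of weeks 1 and 3, the 5-week differences at CSE 1%, 5% and 10% were 0.22, 0.77 and 0.92, of which those at CSE 5% and CSE 10% passed, beside 1.18, 1.73 and 1.88 against the controls of week 5. Whichever controls were used, HIF1A was higher at CSE 5% and CSE 10%.

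**Figure D3:**
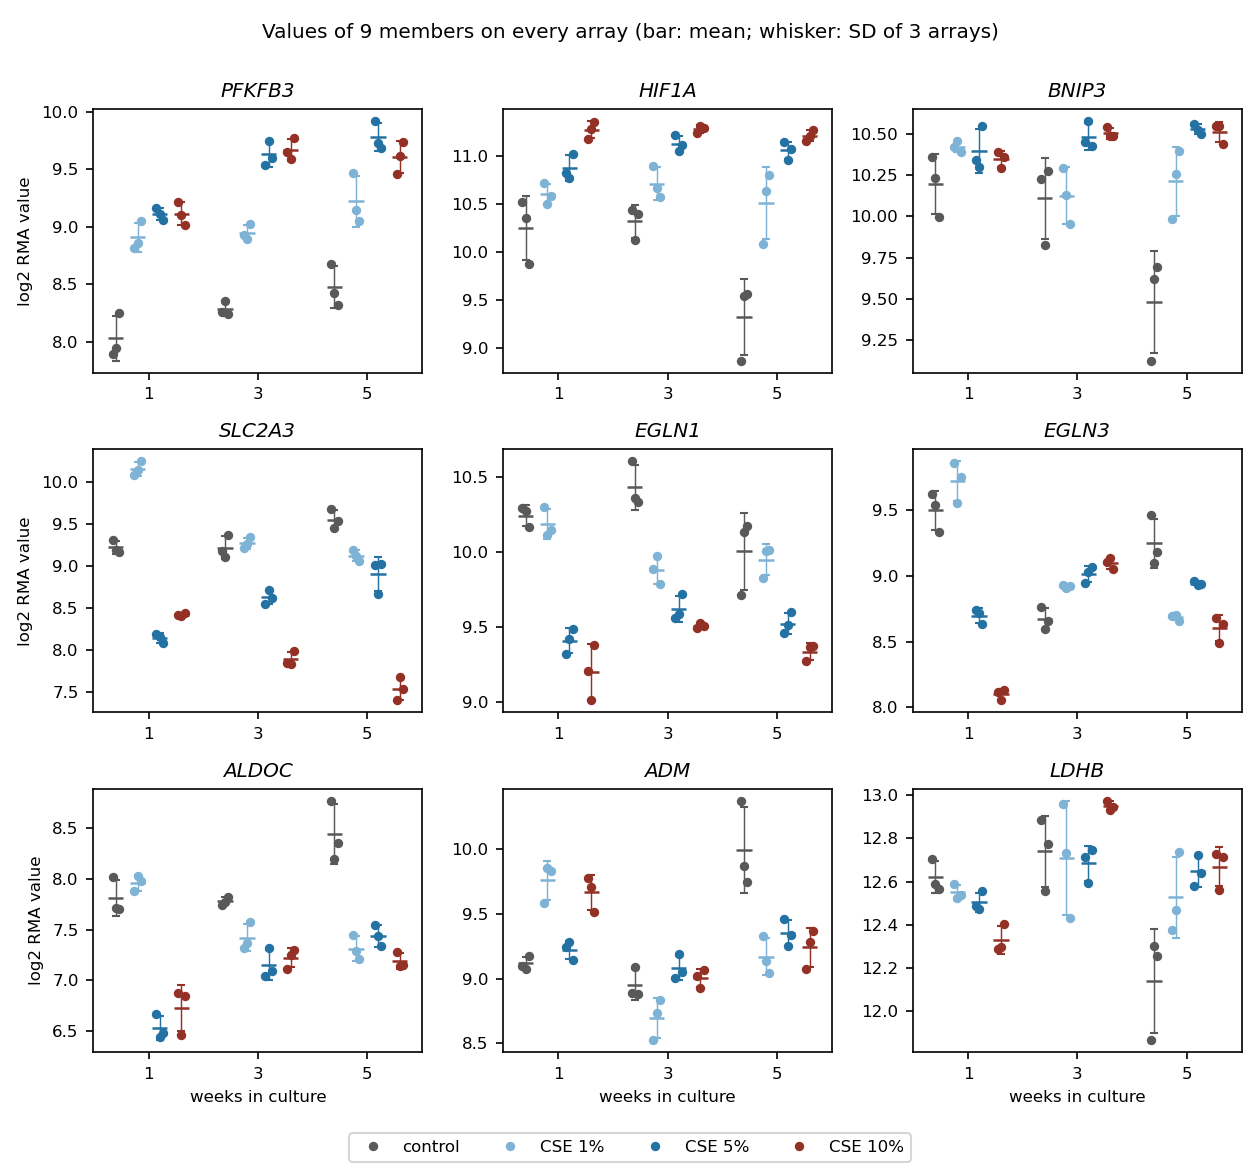
Log2 signal of 9 members on each of the 36 arrays, by week and exposure (control, CSE 1%, 5% and 10%; bars are group means, each panel has its own scale). PFKFB3 separates from the controls in all weeks, EGLN1 is lower at CSE 5% and 10%, and the controls of week 5 are low for HIF1A, BNIP3 and LDHB and high for ALDOC and ADM.

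EGLN1, the prolyl hydroxylase that does most of the oxygen-dependent marking of HIF-1α, was lower at CSE 5% and CSE 10% in every week. After 1 week it was 9.21, 9.01 and 9.38 at CSE 10%, against 10.29, 10.27 and 10.16 in the controls, a difference of −1.04 (SE 0.102, adjusted p = 6.64e-09). After 3 weeks the values were 9.49, 9.53 and 9.51 at CSE 10%, against 10.60, 10.36 and 10.33, a difference of −0.92. After 5 weeks they were 9.27, 9.36 and 9.37, against 9.71, 10.13 and 10.17, a difference of −0.67 (adjusted p = 3.66e-06). Exposed and control cultures did not overlap in any of the 3 weeks. At CSE 5% the differences were −0.83, −0.81 and −0.48, and at CSE 1% only that of week 3 passed (−0.55). Against the controls of weeks 1 and 3, the 5-week differences at CSE 1%, 5% and 10% were −0.39, −0.81 and −1.002, and all passed.

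EGLN3, a second prolyl hydroxylase that is itself induced in hypoxia, changed direction between weeks. After 1 week it was 8.11, 8.05 and 8.13 at CSE 10%, against 9.62, 9.54 and 9.34 in the controls, a difference of −1.40 (SE 0.084, 2.64-fold lower, adjusted p = 2.99e-13). After 3 weeks it was 9.11, 9.13 and 9.05 at CSE 10%, against 8.77, 8.59 and 8.66, a difference of 0.42 (adjusted p = 0.000295). After 5 weeks it was again lower, at 8.68, 8.49 and 8.64, against 9.46, 9.10 and 9.19, a difference of −0.65. Both the exposed and the control levels moved between weeks, since control cultures of week 3 differed from those of week 1 by −0.83 and those of week 5 from week 3 by 0.58. The increase at week 3 did not stand against all 9 control arrays, where the difference at CSE 10% was −0.044. At CSE 5% the differences were −0.80, 0.34 and −0.31 after 1, 3 and 5 weeks, and the 1-week value was −0.44 against all 9 control arrays. After 5 weeks the differences at CSE 1%, 5% and 10% were −0.40, −0.14 and −0.48 against the controls of weeks 1 and 3, and that at CSE 5% no longer passed (adjusted p = 0.148).

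The 2 glucose carriers behaved differently. SLC2A1 (GLUT1), the carrier of basal glucose uptake, was higher after 1 week by 0.30, 0.38 and 0.39 at CSE 1%, 5% and 10% (SE 0.079), with 12.22, 12.18 and 12.03 at CSE 5%, against 11.69, 11.82 and 11.79 in the controls. The call at CSE 1% was lost without control replicate 1 (0.26, adjusted p = 0.094), CSE 1% replicate 1 (0.31, adjusted p = 0.0541) or CSE 1% replicate 3 (0.27, adjusted p = 0.121), after cyclic loess (0.26, adjusted p = 0.0748) and after centring on reference genes (0.24, adjusted p = 0.0689). After 3 weeks it did not pass at any concentration (0.05 to 0.20), and after 5 weeks it was lower at CSE 5% alone (−0.19, adjusted p = 0.0363), which did not pass against the controls of weeks 1 and 3 (−0.11, adjusted p = 0.256).

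SLC2A3 (GLUT3), a carrier with high affinity for glucose, had the widest range of differences of any member. After 1 week it was higher at CSE 1%, with 10.09, 10.15 and 10.25, against 9.31, 9.19 and 9.17 in the controls (difference 0.94, SE 0.090, adjusted p = 2.98e-08). At CSE 5% of the same week it was lower, with 8.19, 8.15 and 8.08 (difference −1.08, adjusted p = 4.4e-10), and at CSE 10% it fell by 0.80 on the log2 scale. The sign of the difference thus turned between CSE 1% and CSE 5%. At CSE 10% the difference was −1.34 after 3 weeks and −2.02 after 5 weeks, when the values were 7.39, 7.67 and 7.53 at CSE 10%, against 9.68, 9.45 and 9.54 in the controls (4.07-fold lower, adjusted p = 1.8e-16). It was −1.69 against the controls of weeks 1 and 3. In weeks 3 and 5 CSE 10% was also lower than CSE 5% (−0.74 and −1.37), whereas in week 1 the same comparison gave 0.28 and did not pass.

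The 13 enzymes read from hexokinase to pyruvate kinase were mostly lower at the later times. At CSE 1%, 5% and 10%, the numbers lower were 0, 3 and 5 after 1 week, 3, 8 and 9 after 3 weeks, and 9, 9 and 12 after 5 weeks. The numbers higher were 2, 2 and 1, then 2, 1 and 0, then 0 at every concentration. The median difference after 5 weeks was −0.22, −0.35 and −0.46, beside −0.14, −0.17 and −0.17 over all clusters. Against the controls of weeks 1 and 3, the numbers lower after 5 weeks were 5, 7 and 8, and the numbers higher 0, 1 and 0. For comparison, the shares of all clusters called lower were 1.9%, 4.84% and 8.44% after 1 week, 5.81%, 9.93% and 12.5% after 3 weeks, and 33.5%, 40.3% and 39.6% after 5 weeks, or 7.43%, 13% and 16% against the controls of weeks 1 and 3. Of all clusters, 3.41%, 5.99% and 8.27% were higher after 1 week, and 5.67%, 9.7% and 14% after 3 weeks. After 5 weeks 20.3%, 23% and 21.9% were higher, or 7.86%, 13.1% and 15% against the controls of weeks 1 and 3. Each change of an enzyme was small, under 2-fold for every one but ALDOC.

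Of the upper pathway, GPI, which turns glucose 6-phosphate into fructose 6-phosphate, was 12.06, 12.18 and 12.19 at CSE 10% after 5 weeks, against 13.09, 12.97 and 12.97 in the controls. That difference was −0.87 (SE 0.089, adjusted p = 7.2e-09), and −0.69 against the controls of weeks 1 and 3. After 1 and 3 weeks the differences at CSE 10% were −0.56 and −0.54. The liver-type phosphofructokinase PFKL, an isoform of the enzyme that PFKFB3 acts on, was 8.17, 8.33 and 8.22 at CSE 10% after 5 weeks, against 9.30, 9.02 and 9.13. Its differences at CSE 10% were −0.56, −0.67 and −0.91 after 1, 3 and 5 weeks. After 5 weeks they were −0.15, −0.36 and −0.61 at CSE 1%, 5% and 10% against the controls of weeks 1 and 3, where that at CSE 1% no longer passed (−0.45 against the 5-week controls). The platelet-type PFKP was not called after 1 week and was lower at CSE 5% and CSE 10% after 3 weeks (−0.55 and −0.78) and after 5 weeks (−0.69 and −0.67, and −0.61 and −0.59 against the controls of weeks 1 and 3). The muscle-type PFKM was not called in any of the 9 comparisons (−0.21 to −0.05), and was lower at CSE 10% after 5 weeks against the controls of weeks 1 and 3 (−0.25, adjusted p = 0.0288). At CSE 10% PFKFB3 was thus higher in the same cultures in which PFKL was lower.

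HK1, a hexokinase that traps glucose in the cell, was higher after 1 week at CSE 1% and CSE 5% (0.50 and 0.38) and after 3 weeks at CSE 1% (0.43). It was lower at CSE 10% after 3 weeks (−0.32) and at CSE 5% and CSE 10% after 5 weeks (−0.35 and −0.46, SE 0.10), with 8.07, 8.03 and 8.02 at CSE 10%, against 8.53, 8.49 and 8.48 in the controls. The last 2 were −0.37 and −0.49 against the controls of weeks 1 and 3. The 1-week call of HK1 at CSE 5% was lost without control replicate 1 (0.31, adjusted p = 0.0654), control replicate 2 (0.35, adjusted p = 0.0504) or CSE 5% replicate 1 (0.35, adjusted p = 0.0600). HK2, the inducible hexokinase, was higher at CSE 10% after 1 week (0.53, adjusted p = 0.000342), where it also exceeded CSE 5% by 0.51. After 5 weeks HK2 was lower at CSE 10% (−0.26, adjusted p = 0.0293), and this did not pass against the controls of weeks 1 and 3 (−0.14). The aldolases split fructose 1,6-bisphosphate. ALDOA was lower at CSE 5% and CSE 10% in every week, with differences at CSE 10% of −0.42, −0.53 and −0.71 (SE 0.069). Its 5-week values were 10.19, 10.26 and 10.10 at CSE 10%, against 10.96, 10.85 and 10.86 in the controls, and the difference was −0.48 against the controls of weeks 1 and 3.

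ALDOC, the aldolase best known from brain, had the largest decreases of the enzymes. After 1 week it was 6.66, 6.44 and 6.47 at CSE 5%, against 8.02, 7.71 and 7.70 in the controls, a difference of −1.29 (SE 0.122, 2.44-fold lower, adjusted p = 6.52e-09). After 3 weeks the difference at CSE 5% was −0.63. After 5 weeks it was 2.00-fold lower, with 7.55, 7.43 and 7.33 at CSE 5%, against 8.77, 8.20 and 8.35. The control level had risen by 0.66 between weeks 3 and 5, and against the controls of weeks 1 and 3 the 5-week differences at CSE 1%, 5% and 10% were −0.49, −0.36 and −0.61, all past the test.

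Of the lower pathway, PGK1, the first enzyme to return ATP, was lower at CSE 5% and CSE 10% in all 3 weeks. In week 3 it was 11.46, 11.48 and 11.51 at CSE 10%, against 12.19, 12.14 and 12.14 in the controls, a difference of −0.67 (SE 0.072, adjusted p = 3.49e-08). At CSE 1% it was lower after 3 and 5 weeks (−0.42 and −0.36) and not after 1 (0.04). TPI1, which interconverts the 2 triose phosphates, was lower after 3 weeks at CSE 5% and CSE 10% (−0.23 and −0.38). Its 5-week decreases of −0.22, −0.29 and −0.37 were 0.00, −0.07 and −0.14 against the controls of weeks 1 and 3. ENO1, the main enolase, was higher at CSE 5% after 1 week (0.24) and lower at CSE 5% and CSE 10% after 3 weeks (−0.29 and −0.34). After 5 weeks ENO1 was lower at CSE 10% (−0.32), which did not pass against the controls of weeks 1 and 3 (−0.11). ENO2, the other enolase of the set, was called higher in 3 of the 9 comparisons and lower in 2 (−0.36 to 0.51). Its increases included those at CSE 1% after 1 week (0.37) and after 3 weeks (0.51). PKM, which makes pyruvate, was called after 5 weeks alone (−0.22 at each concentration), and the same differences were 0.02 against the controls of weeks 1 and 3.

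GAPDH, the glycolytic enzyme most often taken as a reference transcript and not a member of the set, was not called in any of the 9 comparisons (−0.09 to 0.06), and its signal lay between 13.57 and 13.9 on all arrays. LDHA, the lactate dehydrogenase subunit that favours lactate formation, was lower after 1 week at CSE 5% and CSE 10% by small amounts (−0.19 and −0.25, SE 0.056) and was not called later, except at CSE 10% after 5 weeks against the controls of weeks 1 and 3 (−0.13, adjusted p = 0.0366). LDHB, the other subunit, was called after 5 weeks alone, with 12.58, 12.72 and 12.64 at CSE 5%, against 11.87, 12.30 and 12.26 in the controls (difference 0.51, SE 0.111, adjusted p = 0.000336). With the controls of weeks 1 and 3 its differences at CSE 1%, 5% and 10% were −0.15, −0.03 and −0.01, so the increase was seen only against the 5-week controls, which differed from those of week 3 by −0.60. At CSE 1% (0.39) it did not pass without control replicate 1 (0.25, adjusted p = 0.0748) or CSE 1% replicate 3 (0.28, adjusted p = 0.0525). PDK1, a kinase that shuts pyruvate out of the citric acid cycle, was lower after 5 weeks at CSE 1% and CSE 10% (−0.44 and −0.53, and −0.51 and −0.60 against the controls of weeks 1 and 3).

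CA12, a membrane carbonic anhydrase that helps to keep pH, was higher in 7 of the 9 comparisons. In week 3 it was 13.02, 12.99 and 13.01 at CSE 10%, against 12.67, 12.52 and 12.54 in the controls (difference 0.43, SE 0.066, adjusted p = 1.16e-05). After 5 weeks the differences at CSE 1%, 5% and 10% were 0.40, 0.68 and 0.64, and against the controls of weeks 1 and 3 they were 0.06, 0.34 and 0.30, the last 2 past the test. The increases were modest but the cultures did not overlap. The call at CSE 1% after 3 weeks (0.25) was lost without control replicate 2 (0.22, adjusted p = 0.0662) or replicate 3 (0.23, adjusted p = 0.0555).

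The mitophagy receptors BNIP3 and BNIP3L, which tag mitochondria for removal, were both higher. BNIP3 was not called after 1 week (0.15 to 0.23). After 5 weeks it was 10.56, 10.52 and 10.50 at CSE 5%, against 9.13, 9.62 and 9.69 in the controls (difference 1.05, SE 0.126, adjusted p = 1.12e-07). Its difference was 0.38 against the controls of weeks 1 and 3, close to the 0.37 seen after 3 weeks, and that 3-week call was lost without control replicate 2 (0.23, adjusted p = 0.283) or without any 1 of the CSE 5% cultures (0.33 to 0.40, lowest adjusted p = 0.0605). BNIP3L was higher at CSE 5% and CSE 10% in all 3 weeks. After 3 weeks it was 11.18, 11.22 and 11.19 at CSE 5%, against 10.62, 10.47 and 10.81 in the controls (difference 0.56, SE 0.115, adjusted p = 0.000558). After 5 weeks the difference at CSE 5% was 0.98, and 0.57 against the controls of weeks 1 and 3. The 1-week calls of BNIP3L were lost without control replicate 3 (0.27 at CSE 5%, adjusted p = 0.177, and 0.33 at CSE 10%, adjusted p = 0.0574), and that at CSE 5% also without CSE 5% replicate 1 (0.41, adjusted p = 0.0571).

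The secreted factors followed no common course. VEGFA, the main angiogenic factor of hypoxia, was higher at CSE 10% than in the control of the same week, by 0.65, 0.39 and 0.35 after 1, 3 and 5 weeks (SE 0.081). After 1 week it was 10.54, 10.65 and 10.51 at CSE 10%, against 9.94, 10.00 and 9.80 in the controls, and the difference was 1.21 against all 9 control arrays. The 5-week increase at CSE 10% depended on the controls used. Against those of weeks 1 and 3 together, VEGFA was −0.60 and −0.44 at CSE 1% and CSE 5%, both past the test. At CSE 10% it was −0.07 (adjusted p = 0.478, limma). The control weeks themselves differed for VEGFA: week 3 was −0.83 from week 1, whereas week 5 was −0.008 from week 3. The 5-week cultures were not set against the week-3 controls alone. In weeks 1 and 5 VEGFA was also higher at CSE 10% than at CSE 5% (0.41 and 0.37). ADM, a vasodilator peptide, was higher after 1 week at CSE 1% and CSE 10% (0.64 and 0.55) and lower after 5 weeks at all concentrations (−0.82, −0.64 and −0.75). The 1-week calls were lost against all 9 control arrays (0.40, adjusted p = 0.198, at CSE 1% and 0.31, adjusted p = 0.271, at CSE 10%). Those 9 arrays include the week-5 controls with conflicting labels, whose mean for ADM was 9.99, beside 9.12 in the controls of week 1. For ADM the 5-week decrease turned with the controls used: the values at CSE 5% were 9.46, 9.25 and 9.34, against 10.37, 9.87 and 9.74 in the 5-week controls, and against the controls of weeks 1 and 3 the differences were 0.13, 0.32 and 0.21, of which that at CSE 5% passed as higher.

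**Figure D4:**
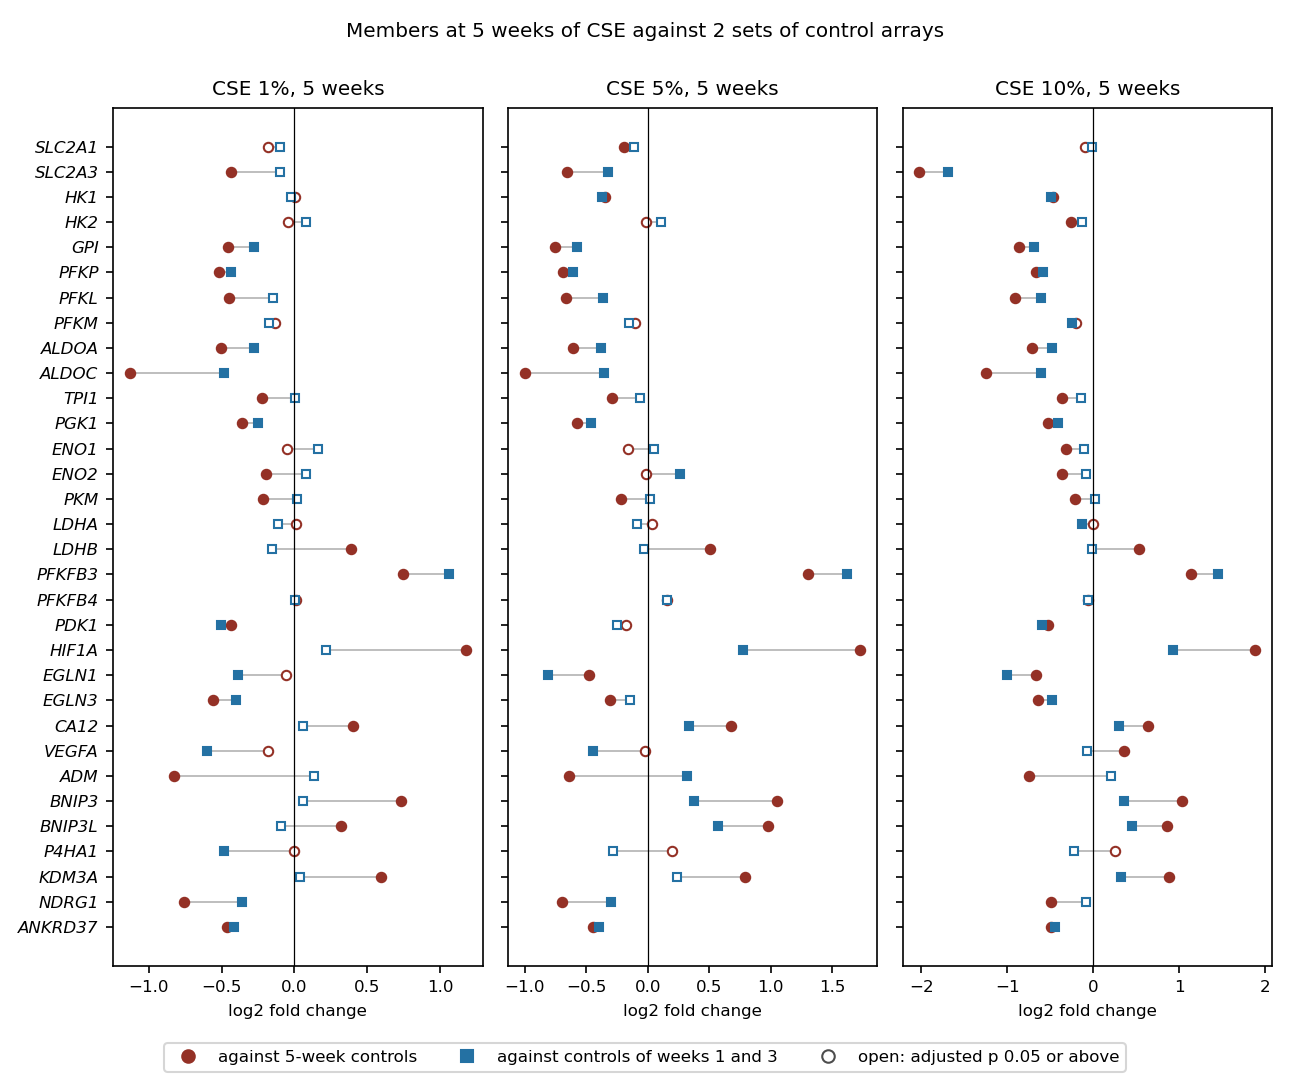
Log2 fold change of the members after 5 weeks of CSE against the 5-week controls and against the controls of weeks 1 and 3, with a panel for each concentration. Some differences depend on the controls used: ADM (−0.82 and 0.13) and LDHB (0.39 and −0.15) change sign at CSE 1%. HIF1A shrinks but stays higher at CSE 5% and 10%, and PFKFB3 and SLC2A3 keep their directions at those concentrations.

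KDM3A, a histone demethylase and HIF target, was higher at CSE 10% after 1 week (0.37, adjusted p = 0.0378) and at CSE 5% and CSE 10% after 3 weeks (0.35 and 0.42, SE 0.123). After 5 weeks its differences were 0.59, 0.79 and 0.88, and 0.04, 0.24 and 0.32 against the controls of weeks 1 and 3, of which the last passed. The 3-week calls were lost without control replicate 2 (0.31 at CSE 5%, adjusted p = 0.156, and 0.37 at CSE 10%, adjusted p = 0.0594). That at CSE 5% was also lost without control replicate 3 (0.32), CSE 5% replicate 1 (0.36) or CSE 5% replicate 3 (0.31). ANKRD37, a hypoxia-induced gene, was lower by small amounts at CSE 5% and CSE 10% in every week (−0.22 to −0.50, SE 0.073), and after 5 weeks by similar amounts against either control (−0.46, −0.45 and −0.50, and −0.41, −0.40 and −0.45). P4HA1, a subunit of the collagen prolyl hydroxylase, was lower after 1 week at CSE 5% and CSE 10% (−0.69 and −0.45) and was not called later, except at CSE 1% after 5 weeks against the controls of weeks 1 and 3 (−0.48, adjusted p = 0.00278). NDRG1, a stress-responsive gene, was lower after 1 week at CSE 5% and CSE 10% (−0.61 and −0.49), not called after 3 weeks, and lower after 5 weeks (−0.76, −0.70 and −0.49 at CSE 1%, 5% and 10%). These 5-week differences were −0.36, −0.30 and −0.09 against the controls of weeks 1 and 3, where that at CSE 10% did not pass (adjusted p = 0.523), and against all 9 control arrays those at CSE 1% (−0.49, adjusted p = 0.0810) and CSE 5% (−0.43, adjusted p = 0.0718) did not pass either. Against all 9 control arrays the 1-week decreases at CSE 5% did not pass, at −0.31 for P4HA1 (adjusted p = 0.147) and −0.28 for NDRG1 (adjusted p = 0.268). Among these HIF targets some were thus higher and others lower in the same cultures.

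CSE 10% was also set directly against CSE 5%. After 1 week 3 members were higher at CSE 10% (HK2 0.51, VEGFA 0.41, ADM 0.44) and 2 lower (GPI −0.36, EGLN3 −0.60), beside 1.09% and 2.18% of all clusters. After 3 weeks 0 were higher and 1 was lower (SLC2A3, −0.74), beside 0.21% and 0.757%, and 2 were higher and 5 lower at an unadjusted p under 0.05 in limma. After 5 weeks 1 was higher (VEGFA, 0.37) and 3 lower (SLC2A3 −1.37, ENO2 −0.35, EGLN3 −0.34), beside 0.426% and 1.8%. For most members the 2 concentrations therefore could not be separated with these arrays.

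In the control cultures 2 members were higher and 4 lower in week 3 than in week 1 (6.23% and 5.27% of all clusters), among them EGLN3 (−0.83), VEGFA (−0.83) and NDRG1 (−0.93), which were lower, and ENO1 (0.48), which was higher. Between weeks 5 and 3, 7 members were higher and 7 lower (31.7% and 21.8% of all clusters). ADM (1.04), NDRG1 (0.87), ALDOC (0.66) and EGLN3 (0.58) were higher in the week-5 controls, and HIF1A (−0.99) and LDHB (−0.60) were lower. On 1 of the 3 arrays, control replicate 1 of week 5, HIF1A, BNIP3, KDM3A, LDHB, CA12, P4HA1 and EGLN1 were the lowest of the 3 and ADM, NDRG1, ALDOC and EGLN3 the highest. That array also had the lowest weight of all 36 when limma estimated array quality (0.178, against up to 2.92). The part of this array in the 5-week results was not tested beyond the values without it given in the closing section.

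The difference between the 5-week and the 1-week response was tested in the same fit. At CSE 1% the response of 3 members was higher and of 18 lower after 5 weeks (10.8% and 10.2% of all clusters), at CSE 5% of 10 and 9 (15.1% and 15.7%), and at CSE 10% of 8 and 11 (13.6% and 16%). At CSE 1% the 18 members whose response was lower thus exceeded the background share. These differences hold the 5-week controls in full, and those controls cannot be told apart from the time.

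Beyond the 35 members, lists of related genes were read in the same way, at CSE 5% after 1, 3 and 5 weeks. In these 3 comparisons 5.99%, 9.7% and 23% of all clusters were higher and 4.84%, 9.93% and 40.3% lower, with a median difference of −0.03, −0.04 and −0.17. Against the controls of weeks 1 and 3, 13.1% were higher and 13% lower after 5 weeks. Of 10 measured genes that carry pyruvate into mitochondria or control its oxidation, 1, 2 and 5 were higher and 6, 4 and 2 lower (median −0.36, −0.12 and 0.32), and after 5 weeks 2 were higher and 3 lower against the controls of weeks 1 and 3 (median −0.03). MPC1, a subunit of the mitochondrial pyruvate carrier, was lower (−0.98, −1.73 and −1.45), also after 5 weeks against the controls of weeks 1 and 3 (−1.58). PDP1, which reactivates pyruvate dehydrogenase, was higher by 0.70, 0.59 and 0.86 (0.77 against those controls), and PDHA1, a subunit of that enzyme, was lower after 1 week (−0.61) and after 3 (−0.67). Of 13 measured genes of the oxygen-sensing machinery, 3, 3 and 7 were higher and 1, 3 and 5 lower (median 0.14, 0.01 and 0.31), and after 5 weeks 3 were higher and 3 lower against the controls of weeks 1 and 3 (median −0.04). ARNT2, a partner of HIF α subunits, was higher by 0.56, 1.05 and 1.29 (1.49 against those controls), and CITED2, which competes with HIF-1α for a coactivator, was lower (−0.66, −0.47 and −1.05, and −0.85 against those controls). These lists therefore held genes that moved in both directions in each week.

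Of 29 measured other HIF targets, 4, 9 and 10 were higher and 6, 12 and 10 lower at CSE 5% (median −0.04, −0.02 and −0.18), beside the shares of all clusters given above, and after 5 weeks 5 were higher and 10 lower against the controls of weeks 1 and 3 (median −0.05). IGFBP3, a binding protein of insulin-like growth factors, was lower in all 3 weeks (−2.11, −1.68 and −1.74, and −2.37 after 5 weeks against the controls of weeks 1 and 3). STC2, a secreted glycoprotein, was higher by 1.55, 1.42 and 1.45, and its 5-week increase did not pass against the controls of weeks 1 and 3 (0.32, adjusted p = 0.0820). Both changes were larger than that of any member at CSE 5% after 1 week. Of 19 other measured enzymes of glycolysis and gluconeogenesis, 2, 1 and 5 were higher and 3, 4 and 8 lower (median −0.06, −0.13 and −0.18), and after 5 weeks 1 was higher and 5 lower against the controls of weeks 1 and 3 (median −0.11). PFKFB2, an isoform of PFKFB3, was lower (−0.40, −0.68 and −0.58, and −0.70 against those controls), and BPGM, which makes 2,3-bisphosphoglycerate, was higher (0.39, 0.37 and 1.03, and 0.61 against those controls). Of 7 measured glycogen genes, 1, 0 and 2 were higher and 1, 1 and 3 lower (median −0.15, −0.03 and −0.06), and after 5 weeks 0 were higher and 4 lower against the controls of weeks 1 and 3 (median −0.29).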

How the data were processed

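RNA of A549 cells exposed to CSE was measured on 36 one-colour arrays, and the number of arrays limits the precision. The deposited values are log2 signals, which the authors obtained by RMA (background correction, quantile normalization and summary of probes) in R 2.11.0 and tested with limma, per the labels and the methods. For the annotation, a genome build was not given in the sources used here. Values were used as deposited, and groups came from sample titles. Of 33297 transcript clusters, 19460 carried 1 symbol, 1754 several and 12083 none.

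One limma fit (version 3.58.1, R 4.3.3) of the 12 group means gave moderated tests on 24 residual degrees of freedom, with 3.906 prior degrees of freedom and Benjamini-Hochberg adjustment over all clusters. The script was tested on simulated data. The members and lists were chosen with earlier results of these data known. Array values were given for up to 6 members per direction with the largest change in a comparison among those called and without overlap of the 3 exposed and 3 control arrays, for HIF1A, and for a few members chosen after their values were seen (among them SLC2A1, VEGFA, LDHB and BNIP3L); list genes followed the same rule with up to 3 per direction at CSE 5%. Promoter windows came from RefSeq (GRCh38.p14) and served only for sequences. Alternatives were a separate fit per week, the replicate number as a block, the 60% brightest clusters, cyclic loess, centring on 18 reference genes, trended and robust variances, array weights, the mean over clusters of a gene, a B statistic above 3, other sets of controls, and each array left out.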

Additional observations from a re-analysis of the deposited data

Results flagged for a closer look

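The response of 10 members differed between weeks 5 and 1 at all 3 concentrations by the test of that difference (adjusted p under 0.05, limma). The values are the log2 difference of CSE from control after 5 weeks minus that after 1 week, at CSE 1%, 5% and 10%. HIF1A (0.83, 1.10 and 0.86), BNIP3 (0.51, 0.85 and 0.88) and LDHB (0.46, 0.62 and 0.82) had higher values after 5 weeks. SLC2A1 (−0.48, −0.57 and −0.49), HK1 (−0.49, −0.72 and −0.62), PFKP (−0.49, −0.53 and −0.51), ALDOA (−0.40, −0.29 and −0.29) and ADM (−1.46, −0.75 and −1.30) had lower values. EGLN3 (−0.78, 0.50 and 0.75) and SLC2A3 (−1.37, 0.43 and −1.22) moved in different directions at different concentrations. All of these hold the 5-week controls in full. The tests at the 3 concentrations share their control arrays and are not independent of each other. How many of all clusters differed at all 3 concentrations was not counted, so the 10 members have no matching background. At a single concentration, 10.8% to 15.1% of all clusters were higher and 10.2% to 16% lower. Without control replicate 1 of week 5, HIF1A at CSE 1% was 0.60 (adjusted p = 0.0588), BNIP3 0.33 (adjusted p = 0.180), LDHB 0.32 (adjusted p = 0.155), and ALDOA at CSE 5% and CSE 10% −0.25 (adjusted p = 0.0743) and −0.26 (adjusted p = 0.0661), none past the test. Other single arrays also ended calls: for HIF1A at CSE 1%, control replicate 1 of week 1 (0.69, adjusted p = 0.0541), for HK1 at CSE 1%, control replicate 1 of week 1 (−0.43), CSE 1% replicate 3 of week 1 (−0.42) or of week 5 (−0.40), for ALDOA at CSE 5%, control replicate 1 (−0.27) or 2 (−0.28) or CSE 5% replicate 1 of week 1 (−0.28), and at CSE 10%, control replicate 1 of week 1 (−0.27) or CSE 10% replicate 3 of week 5 (−0.25). At CSE 1% BNIP3 (0.33 to 0.52) lost its call without any of 8 of its 12 arrays and LDHB (0.32 to 0.49) without any of 7. The CSE 1% calls also ended for BNIP3 with cyclic loess (0.44, adjusted p = 0.0582) and with the replicate number as a block (adjusted p = 0.0539), and for LDHB with array weights (0.32, adjusted p = 0.0593).

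The response of EGLN3 after 3 weeks also differed from that after 1 week, by 1.15 at CSE 5% (adjusted p = 4.8e-07) and 1.83 at CSE 10% (adjusted p = 2.1e-11). This contrast was chosen after its values were seen.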

How the results depend on the processing

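Counts of members kept to within 1.5 times the reported value in every case with trended and robust variances (43 of 43), a B statistic above 3 (9 of 9) and the replicate number as a block (43 of 43, with the calls of KDM3A at CSE 5% after 3 weeks, adjusted p = 0.0507, and of the BNIP3 difference between weeks at CSE 1%, adjusted p = 0.0539, lost). The replicate numbers did not pair the samples throughout. Over 27 pairs of same-numbered arrays the correlation of deviations was −0.208 to 0.504 (median 0.0243), 6 were over 0.1, and in 10 an array correlated best with its own number. Among these was replicate 1 of CSE 1% in each week (0.504, 0.325 and 0.321 after 1, 3 and 5 weeks), so some shared structure is not excluded.

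With a separate fit per week, CSE 10% over CSE 5% after 5 weeks gave 0 members higher and 1 lower. The brightest 60% and the mean over clusters each gave 4 lower for CSE 10% over CSE 5% after 1 week. Cyclic loess gave 2 members past the study's rule at CSE 5% after 5 weeks, 11 higher in the controls of week 5 over week 3, and 1 higher for CSE 10% over CSE 5% after 3 weeks, and it moved the median of all clusters after 5 weeks to −0.01, −0.03 and −0.03 at CSE 1%, 5% and 10%. Centring on reference genes gave 7 lower at CSE 5% after 3 weeks, 13 higher at CSE 10% after 3 weeks, and 15 higher in the controls of week 5 over week 3. Array weights gave 2 past the study's rule at CSE 5% after 5 weeks, 4 higher in the controls of week 3 over week 1, 5 higher and 6 lower for CSE 10% over CSE 5% after 1 week, and 1 higher after 3 weeks.

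With all 9 control arrays, 10 members were higher at CSE 1% after 1 week, 7 lower at CSE 1% and 2 past the study's rule at CSE 5% after 3 weeks, and EGLN3 at CSE 10% after 3 weeks turned to −0.044. After 5 weeks this gave 1 higher, 8 lower and 0 past the study's rule at CSE 1%, 10 lower and 2 past it at CSE 5%, and 3 past it at CSE 10%. Against the controls of weeks 1 and 3, 1 was higher at CSE 1%, and 1, 1 and 3 passed the study's rule at CSE 1%, 5% and 10%. LDHB at CSE 1% turned to −0.15, and ADM at CSE 1% and CSE 10% to 0.13 and 0.21. These other controls, and the fit per week, do not apply to contrasts between weeks.

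With each array left out in turn, 269 of 294 counts stayed within 1.5 times, and of 978 values of named genes 51 lost their call and 0 turned. Members higher at CSE 5% after 1 week ranged from 4 (without CSE 5% replicate 1) to 7, and were 5 without control replicate 1 or 3 or CSE 5% replicate 3. Those past the study's rule ranged from 3 (without CSE 10% replicate 2) to 5 at CSE 10% after 1 week, and after 5 weeks from 0 to 2 at CSE 1% and 2 to 5 at CSE 5%, both lowest without control replicate 1 of week 5. Members higher in the controls of week 3 over week 1 ranged from 1 (without control replicate 2 of week 3) to 3, and those with a higher response after 5 weeks at CSE 1% from 0 (without control replicate 1 of week 1 or of week 5) to 5 (without control replicate 3 of week 5), with 1 in 5 other cases. For CSE 10% over CSE 5% the ranges were 1 to 3 lower after 1 week (1 without any of 5 of the 6 cultures), and 0 to 1 higher and 1 to 3 lower after 5 weeks (lowest without CSE 10% replicate 2 for both, without CSE 5% replicate 2 for higher and CSE 5% replicate 1 for lower). The causes of these changes were not tested.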
